A study of Bos taurus with 19 samples.

Results

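CD44, versican (VCAN), hyaluronan synthase 2 (HAS2) and TNFAIP6 were followed in the theca interna, the inner, vascular and androgen-producing layer of the wall of the bovine ovarian follicle. A probe set was taken as a member when the annotation of the array gave it 1 of these symbols and no other, which selected 9 of the 24127 probe sets on the array, for 4 of the 9156 genes named there. There was 1 for CD44, 3 for VCAN, 3 for HAS2 and 2 for TNFAIP6.

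Hyaluronan is a long, unsulfated sugar chain that synthases at the plasma membrane extrude into the matrix around cells. HAS2 is the synthase best known from the ovary, where it makes the hyaluronan of the expanding cumulus of the preovulatory follicle. CD44 is the main cell surface receptor for hyaluronan, and is carried by leukocytes and by many stromal cells. Versican is a large chondroitin sulfate proteoglycan that binds hyaluronan through its N-terminal end, and TNFAIP6 encodes TSG-6, a secreted protein that moves heavy chains of inter-alpha-trypsin inhibitor onto hyaluronan.

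Signals came from 19 Affymetrix bovine arrays with 1 channel, and each array held RNA of the theca interna of a single follicle from non-pregnant Bos taurus heifers. There were 5 small atretic follicles (3 to 5 mm), 4 large healthy follicles (over 9 mm), and 10 small healthy follicles (3 to 5 mm), of which 5 had rounded and 5 had columnar basal granulosa cells. The study set aside a large follicle for high levels of granulosa cell genes, and the labels do not say whether it is among these 4. The granulosa cells had been scraped off before the theca was dissected, and the follicles were graded as healthy or atretic from the histology of a piece of the same wall. Neither age nor treatment of the heifers was given, and nothing says which follicles came from the same animal, so the p-values measure the spread between follicles. In bulk tissue of this kind fewer cells of a type and less RNA per cell cannot be told apart.

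Values are log2 signals, on which a difference of 1 is a 2-fold change, and a probe set entered the tests when its signal exceeded 3 on 50% or more of the arrays of any 1 follicle type. By this measure 6 of the 9 member probe sets were tested, the CD44 probe set, all 3 for VCAN and 2 of the 3 for HAS2, and each of these lay above 3 on all 19 arrays. The third HAS2 probe set and both for TNFAIP6 were not tested. A difference was called at an adjusted p below 0.05 in limma, with Benjamini-Hochberg adjustment over all probe sets tested, together with at least a 2-fold change. An exact two-sided permutation test over follicles was run for each member probe set in each of the 4 comparisons and between each of the 6 pairs of follicle groups (72 different tests, p unadjusted). The theca marker INSL3 was at 10 or above on every array, whereas CYP17A1, the enzyme of thecal androgen synthesis, ranged between 3.0 and 8.0 in atretic follicles, between 6.1 and 9.2 in large follicles and between 5.2 and 8.6 in small healthy follicles.

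According to the sample records, the RNA of the 3 kinds of follicle was prepared with different kits (RNAqueous Micro for atretic, Trizol with RNeasy columns for large and RNeasy mini for small healthy follicles), and 250 ng was labelled for atretic follicles and 2 to 5 µg for the others. The methods of the study describe 1 procedure for all thecal RNA. By the records, follicle group and RNA preparation cannot be told apart. Bacterial poly-A control transcripts, which are added to the RNA before labelling, had a mean log2 signal over 24 probe sets of 4.78 ± 0.32 on atretic arrays and 5.88 ± 0.28 on large arrays, and of 4.57 ± 0.22 on small healthy arrays (SD, n = 5, 4 and 10). The range of the large arrays, between 5.63 and 6.27, lay above all of the others.

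CD44 was higher in large than in small healthy follicles, and it was the only member probe set called in any comparison. The signals were 5.8, 4.8, 5.1 and 5.4 in large follicles, against 4.3, 4.5, 5.0, 4.5 and 3.9 in rounded and 3.4, 4.6, 4.0, 4.2 and 3.9 in columnar small follicles. All but 1 of the large follicles lay above every small healthy follicle, and the remaining one, at 4.8, lay below a single rounded follicle. The means were 5.28 ± 0.43 in large follicles and 4.23 ± 0.45 in small healthy follicles (SD, n = 4 and 10). The log2 difference was 1.05 (SE 0.24, 95% interval 0.53 to 1.56), a 2.06-fold change with an adjusted p of 0.0311 (limma) and an exact permutation p of 0.00200. Among all 15570 probe sets tested, 0.706% were called and 0.629% were called higher in large follicles, whereas 1.26% had a larger absolute difference than CD44. The study also listed CD44 as higher in large follicles, and the members were chosen with earlier results known.

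The call for CD44 lay close to both thresholds. It was kept in 19 of 26 alternative settings, over which the difference stayed between 0.84 and 1.26 and the adjusted p between 0.0168 and 0.259. Without columnar follicle 1 it was 0.95, below the 2-fold limit, with an adjusted p of 0.0385. Leaving out a large follicle gave 0.87 without follicle 1 (adjusted p = 0.0656), 1.10 without follicle 3 (adjusted p = 0.0616) and 1.0 without follicle 4 (adjusted p = 0.109). Against the rounded follicles alone, the difference was 0.84 (adjusted p = 0.259).

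CD44 was also higher in small atretic than in small healthy follicles. Atretic follicles gave 4.8, 4.6, 5.3, 5.2 and 5.2, of which 3 exceeded every small healthy follicle. Their mean of 5.02 ± 0.30, against 4.23 ± 0.45 in small healthy follicles (SD, n = 5 and 10), was a difference of 0.79 (SE 0.21, 95% interval 0.35 to 1.23, 1.73-fold), with an adjusted p of 0.0121 (limma) and an exact permutation p of 0.00533. It fell short of 2-fold and was not called. In this comparison 31.9% of all 15470 probe sets tested had an adjusted p below 0.05 and 3.68% were called. The 10 small healthy follicles are the same as in the comparison with large follicles, so the 2 results are not independent.

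Between atretic and large follicles the CD44 signals overlapped. The difference was -0.26 (95% interval -0.74 to 0.23, adjusted p = 0.551 in limma, exact permutation p = 0.357). Rounded follicles averaged 4.44 ± 0.40 and columnar follicles 4.02 ± 0.44 (SD, n = 5 each), a difference of 0.42 whose interval was -0.10 to 0.94 (adjusted p = 0.996 in limma, exact permutation p = 0.190). The order of the means was thus large, atretic, rounded and columnar, and no neighbours in this order passed the adjusted threshold. Atretic minus rounded was 0.58, with an adjusted p of 0.109 in limma and an exact permutation p of 0.0397.

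**Figure D1:**
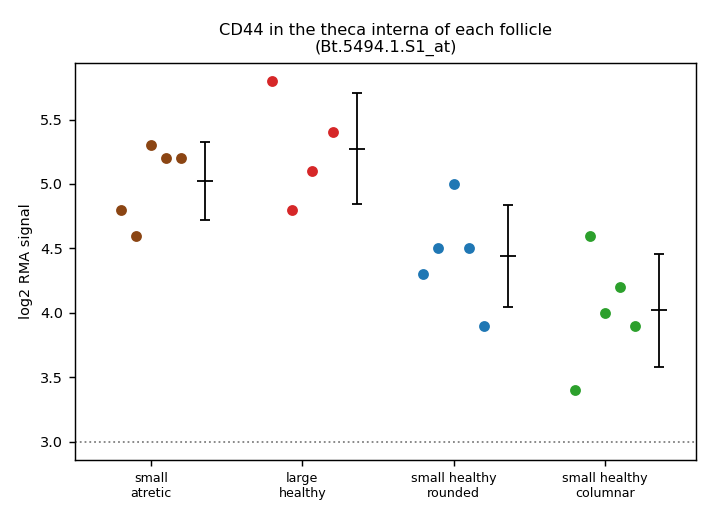
Log2 RMA signal of the CD44 probe set (vertical axis) in each of the 19 follicles, by follicle group. Each point is 1 follicle, the bar beside each group is its mean ± SD, and the dotted line is the detection threshold of 3. Large follicles lie between 4.8 and 5.8 and atretic follicles between 4.6 and 5.3, against 3.4 to 5.0 in the 10 small healthy follicles.

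Markers of other cell types were read beside CD44. The mean log2 signal over the 16 immune markers on the array was 5.32 in atretic follicles (range 4.62 to 5.79) and 4.67 in large follicles (range 4.34 to 5.11), and 4.15 in small healthy follicles (range 3.53 to 4.59). In atretic follicles 14 of the 14 markers tested had an adjusted p below 0.05 in the direction of a higher signal and 11 were called, where 16.9% of all probe sets tested were higher by the adjusted p and 2.08% were called higher. In large follicles the numbers were 2 and 0, beside 2.59% and 0.629% of all probe sets. The immune list mean was highest in atretic follicles. CD44 had its highest mean in large follicles, but its signals in large and atretic follicles overlapped. Of the 2 markers not tested, CD5 stayed at or below 2.5 and ITGAM at or below 1.4 on all arrays. The list means of endothelial markers were 5.67 in atretic, 5.88 in large and 5.40 in small healthy follicles, and those of smooth muscle and pericyte markers 6.90, 7.16 and 6.61 in the same order. Fibroblast list means were 8.71, 8.87 and 8.63, granulosa 5.87, 6.59 and 6.27, and steroidogenic theca 8.07, 8.70 and 8.61. In large follicles 3 of 8 fibroblast, 0 of 7 endothelial and 1 of 8 smooth muscle and pericyte markers tested were higher at an adjusted p below 0.05 (limma). Of 9 granulosa markers 1 was higher and 1 lower, and of 7 steroidogenic theca genes 0 passed. Across the 19 arrays, CD44 had a Pearson correlation of 0.66 with the immune list mean, 0.64 with the endothelial, 0.61 with the fibroblast and 0.59 with the smooth muscle and pericyte list mean. Once the group means were removed, these values were 0.38, 0.34, 0.38 and 0.28. With the granulosa list mean the correlation was -0.16, and -0.42 with the group means removed, and with the list of steroidogenic theca genes it was -0.25 and -0.23. Large follicle 2 had the highest granulosa list mean of all 19 arrays, at 7.41, and the lowest CD44 signal of the large follicles, and without it the CD44 difference from small healthy follicles was 1.20 (adjusted p = 0.0337 in limma). The part of these cell types, or of the RNA preparation and the poly-A controls, in the CD44 differences was not tested.

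The 5 genes whose signal followed CD44 most closely over the 19 arrays were FHL1, a LIM domain protein (r = 0.89), F13A1, the A subunit of coagulation factor XIII (r = 0.87), TIPARP, an ADP-ribosyltransferase (r = 0.86), LTB, a membrane-bound cytokine of the tumor necrosis factor family (r = 0.86), and SLIT3, a secreted guidance ligand (r = 0.85). With the group means removed the correlations lay between 0.55 for TIPARP and 0.79 for SLIT3. The arrays share group differences and RNA preparation, and the values serve as a description.

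Versican gave a clear signal in all groups, and none of its 3 probe sets passed the adjusted threshold in any of the 4 comparisons. The most strongly hybridised of its probe sets, Bt.2129.2.S1_at, read 7.4, 7.0, 7.2, 7.3 and 7.5 in atretic follicles and 7.7, 7.9, 7.2 and 6.8 in large follicles, against 7.5, 7.3, 7.4, 7.3 and 7.1 in rounded and 7.3, 7.7, 6.9, 7.0 and 7.3 in columnar follicles. Large follicles held both the highest and the lowest value. Their mean of 7.40 ± 0.50, against 7.28 ± 0.23 in small healthy follicles (SD, n = 4 and 10), was a difference of 0.12 (95% interval -0.26 to 0.50, adjusted p = 0.699 in limma). Atretic follicles, at 7.28 ± 0.19 (SD, n = 5), differed from small healthy follicles by 0.00 (95% interval -0.25 to 0.25).

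The second versican probe set, Bt.2129.1.S1_at, read 6.8, 6.5, 7.0, 7.1 and 7.0 in atretic follicles, and 7.2, 7.6, 6.8 and 6.4 in large follicles. Rounded follicles were within 7.1 and 7.3, whereas columnar follicles ranged between 6.4 and 7.7. The difference was -0.14 between large and small healthy follicles (95% interval -0.60 to 0.32) and -0.26 between atretic and small healthy follicles (95% interval -0.60 to 0.08, adjusted p = 0.220 in limma). The groups overlapped in both comparisons. Against the rounded follicles alone, atretic follicles differed by -0.30 (adjusted p = 0.134 in limma, exact permutation p = 0.0238), the smallest exact p among the versican probe sets.

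The third, Bt.5395.1.S1_a_at, is the versican probe set annotated to a RefSeq transcript, the other two to expressed sequence tags. It read 5.8, 5.8, 5.9, 6.2 and 5.8 in atretic follicles, and 6.5, 6.9, 6.1 and 5.6 in large follicles. Rounded follicles read 6.5, 6.5, 6.0, 5.8 and 5.8, and columnar follicles 5.9, 6.1, 5.4, 5.4 and 6.1. Large minus small healthy was 0.33 (95% interval -0.17 to 0.82, adjusted p = 0.399 in limma), and atretic minus small healthy was -0.05 (95% interval -0.41 to 0.31). For atretic minus large the value was -0.38 (95% interval -0.89 to 0.14), and for rounded minus columnar it was 0.34 (95% interval -0.18 to 0.86). In all 4 comparisons the 95% intervals of the 3 versican probe sets stayed inside a 2-fold change, and small differences of each of them changed sign between settings.

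What spread there was in versican lay between follicles of a group. The 3 probe sets moved together over the 19 arrays (r = 0.83, 0.78 and 0.65), also with the group means removed (r = 0.90, 0.80 and 0.76). Large follicle 2 was the highest and large follicle 4 the lowest of the large follicles on all of them. Large follicle 2 also had the highest granulosa list mean. Without it, large minus small healthy was -0.05 for Bt.2129.2.S1_at, -0.34 for Bt.2129.1.S1_at and 0.12 for Bt.5395.1.S1_a_at. The granulosa list mean had r = 0.18, 0.32 and 0.41 with these probe sets over the 19 arrays. With the group means removed these were 0.12, 0.28 and 0.28. The smooth muscle and pericyte list mean had r = 0.47, 0.19 and 0.46, and 0.47, 0.42 and 0.38 with the group means removed. For steroidogenic theca genes the values were -0.39, -0.23 and -0.15, and then -0.45, -0.36 and -0.24. Those of the immune, endothelial and fibroblast lists lay between -0.31 and 0.31, and then between -0.24 and 0.21. The part of these cell types in the versican values was not tested. The within-group SD of Bt.2129.2.S1_at, Bt.2129.1.S1_at and Bt.5395.1.S1_a_at was 0.30, 0.37 and 0.37, above that of 72.4%, 83.3% and 83.2% of the 15722 probe sets that passed the filter over all follicle types. The genes closest to Bt.2129.2.S1_at were RRAS2, a small GTPase related to Ras (r = 0.81), MARVELD1, a membrane protein (r = 0.71), the unconventional myosin MYO10 (r = 0.69), GON4L (r = 0.68) and CYBRD1, a ferric reductase (r = 0.68). None of these 5 genes passed the test in any of the 4 comparisons. They were chosen by correlation over the same arrays, group differences included, so this is not independent of Bt.2129.2.S1_at.

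**Figure D2:**
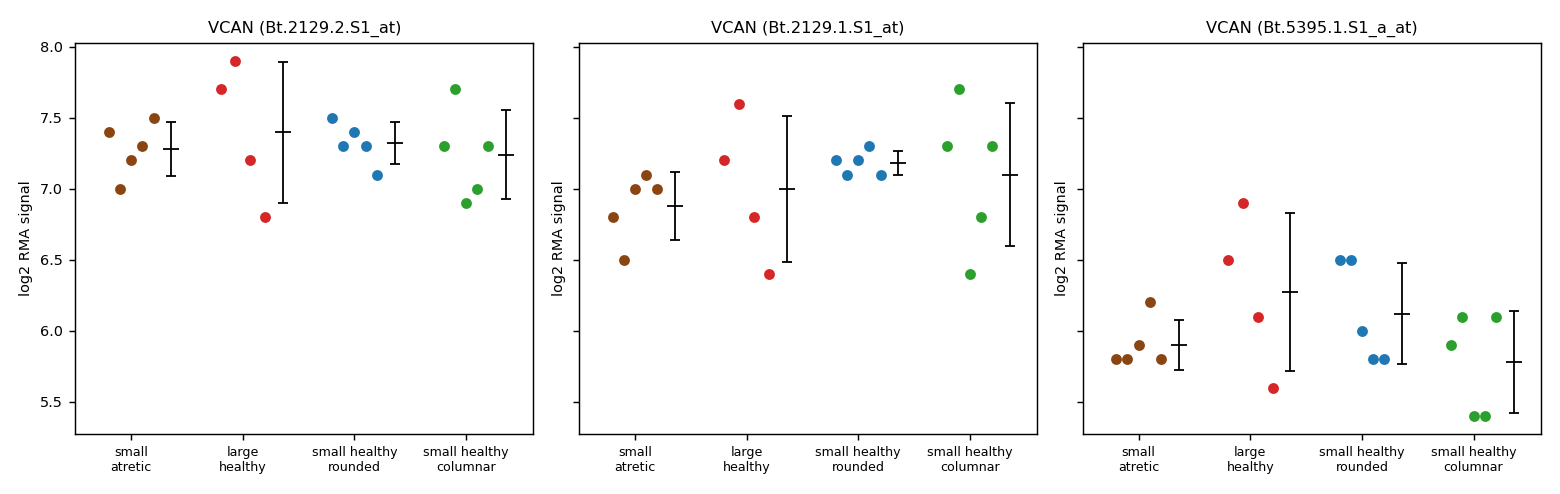
Log2 RMA signal of the 3 versican probe sets (vertical axis, shared) in each of the 19 follicles, by follicle group. Each point is 1 follicle and the bar beside each group is its mean ± SD. The groups overlap on all 3 probe sets, and the large follicles have the widest spread on each, with SDs between 0.50 and 0.56.

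The 3 HAS2 probe sets did not give 1 picture of the synthase. The one annotated to the RefSeq transcript of HAS2, Bt.12927.1.S1_at, lay between 1.4 and 1.8 on all 19 arrays and was not tested. It read between 1.4 and 1.6 in atretic follicles and between 1.5 and 1.8 in small healthy follicles (exact permutation p = 0.0123), below the threshold at which a difference was read. Bt.20289.1.S1_at and Bt.12927.2.S1_at, annotated to expressed sequence tags, lay above the threshold on every array. The name of these probe sets rests on the annotation of the array, and whether they measure the HAS2 transcript was not tested. Bt.12927.1.S1_at and Bt.12927.2.S1_at share the cluster number 12927 of the array design, and Bt.20289.1.S1_at does not. They are given by probe set here.

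Bt.20289.1.S1_at was lower in atretic than in small healthy follicles, and its difference in large follicles had the same sign but missed the adjusted threshold. Large follicles gave 6.4, 6.3, 6.3 and 6.0 and atretic follicles 6.3, 6.4, 6.3, 6.3 and 6.4, whereas rounded follicles gave 6.4, 6.8, 6.6, 6.5 and 6.9 and columnar follicles 6.6, 6.9, 6.7, 6.4 and 6.8. No large or atretic follicle exceeded 6.4, and 8 of the 10 small healthy follicles did. The mean was 6.34 ± 0.05 in atretic follicles, against 6.66 ± 0.19 in small healthy follicles (SD, n = 5 and 10), a difference of -0.32 (SE 0.09, 95% interval -0.52 to -0.12) with an adjusted p of 0.0176 (limma) and an exact permutation p of 0.00466. Of all probe sets tested there, 15.1% were lower at an adjusted p below 0.05, and 33.2% had a larger absolute difference.

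In large follicles this probe set had a mean of 6.25 ± 0.17 (SD, n = 4), and the difference from small healthy follicles was -0.41 (SE 0.11, 95% interval -0.65 to -0.17). The exact permutation p was 0.00400, but the adjusted p in limma was 0.0565, and over the 26 alternatives it ranged between 0.0271 and 0.324. In this comparison 24.4% of all probe sets tested had an unadjusted p below 0.05 and 3.58% an adjusted p below 0.05. Atretic and large follicles differed by 0.09 (adjusted p = 0.644 in limma), and rounded and columnar follicles by -0.04 (adjusted p = 0.996 in limma).

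Bt.12927.2.S1_at was lower in atretic than in small healthy follicles, and passed the adjusted threshold in no other comparison. It read 5.0, 4.4, 4.5, 4.9 and 4.4 in atretic follicles and 5.2, 5.4, 5.3 and 5.1 in large follicles, against 5.2, 5.7, 4.7, 5.0 and 5.7 in rounded and 5.7, 5.4, 5.6, 4.7 and 5.8 in columnar follicles. Each atretic follicle lay below each large follicle, which 1.36% of all probe sets tested also showed, while the large follicles lay within the range of the small healthy ones. The mean was 4.64 ± 0.29 in atretic follicles, against 5.35 ± 0.42 in small healthy follicles (SD, n = 5 and 10), a difference of -0.71 (SE 0.20, 95% interval -1.13 to -0.29, 0.611-fold) with an adjusted p of 0.0148 (limma) and an exact permutation p of 0.00866. Of all probe sets tested there, 15.1% were lower at an adjusted p below 0.05, and 8.33% had a larger absolute difference. Atretic minus large was -0.61 (SE 0.15, 95% interval -0.94 to -0.28). This gave an exact permutation p of 0.0159, where 0.00794 was the smallest the design allows, and an adjusted p of 0.141 in limma, in a comparison in which 0% of all probe sets passed the adjusted threshold and 18.0% had an unadjusted p below 0.05. Large minus small healthy was -0.10 (95% interval -0.53 to 0.33, adjusted p = 0.784 in limma). Rounded minus columnar was -0.18 (95% interval -0.65 to 0.29, adjusted p = 0.996 in limma), in a comparison in which 0% of all probe sets passed the adjusted threshold and 2.31% had an unadjusted p below 0.05.

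Against the rounded follicles alone, CD44 and both tested HAS2 probe sets kept their direction in atretic follicles but not the adjusted p below 0.05, at 0.109 for CD44, 0.110 for Bt.20289.1.S1_at and 0.105 for Bt.12927.2.S1_at. With any single follicle left out, and in the other alternatives, all 3 stayed below 0.05.

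**Figure D3:**
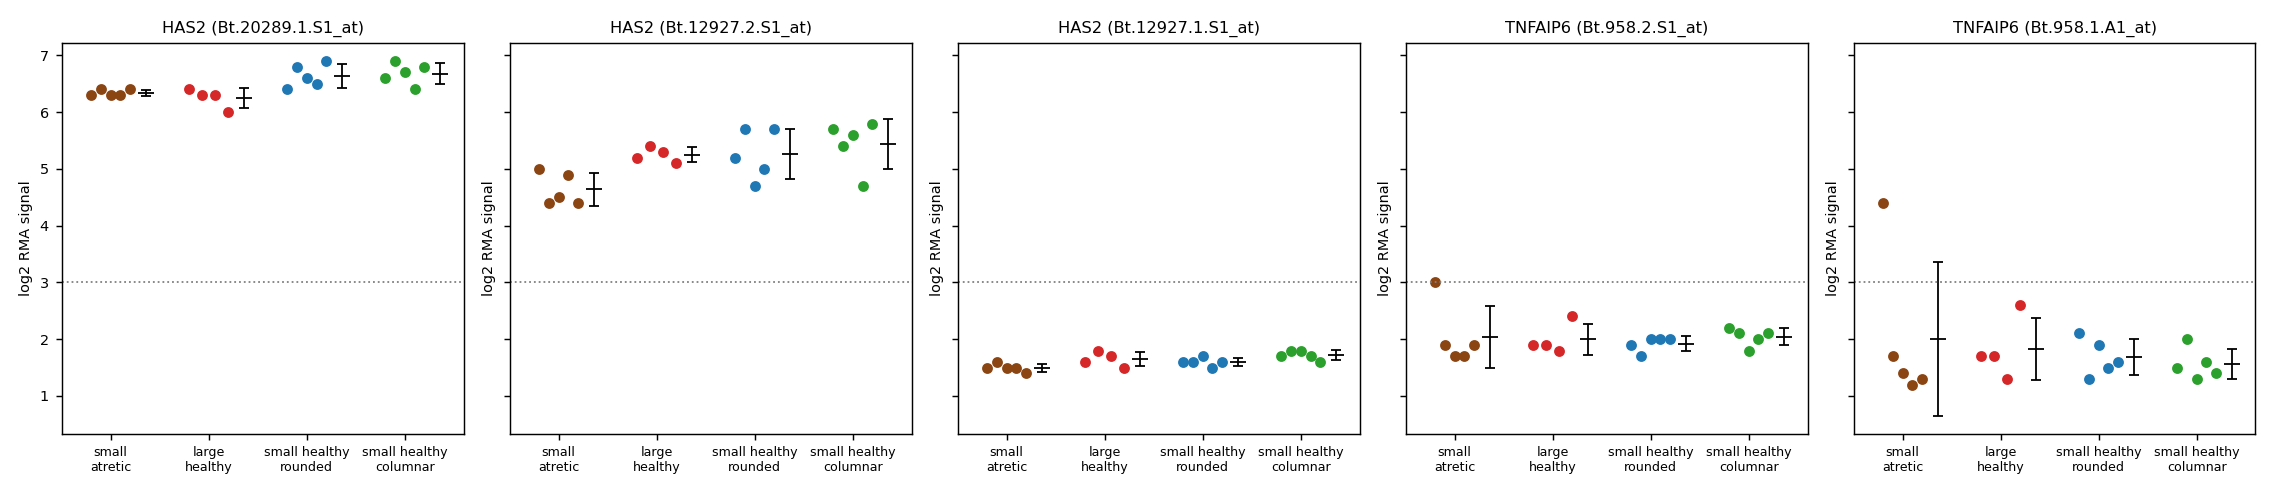
Log2 RMA signal (vertical axis, shared) of the 3 HAS2 probe sets and the 2 TNFAIP6 probe sets in each of the 19 follicles, by follicle group. Each point is 1 follicle, the bar beside each group is its mean ± SD, and the dotted line is the detection threshold of 3. HAS2 Bt.12927.1.S1_at stays between 1.4 and 1.8, and TNFAIP6 exceeds 3 only in atretic follicle 1, at 4.4 on Bt.958.1.A1_at.

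Both tested HAS2 probe sets correlated only moderately with each other (r = 0.56 over the 19 arrays, 0.53 with the group means removed). The genes closest to Bt.20289.1.S1_at were ZWILCH, a kinetochore protein (r = 0.93), POLD1, the catalytic subunit of a DNA polymerase (r = 0.93), HNRNPU, a nuclear RNA-binding protein (r = 0.93), TRPC2, a cation channel of the TRP family (r = 0.92), and CDC45, a part of the replicative helicase (r = 0.92). With the group means removed these values lay between 0.86 and 0.93. With Bt.12927.2.S1_at the same genes had r = 0.76, 0.75, 0.76, 0.56 and 0.73 in that order. In atretic follicles ZWILCH, POLD1, HNRNPU and CDC45 were lower at an adjusted p below 0.05 (limma), with differences of -0.56, -0.75, -0.39 and -0.98 from small healthy follicles. The corresponding value of TRPC2 was -0.30 (adjusted p = 0.0608). Of all probe sets tested there, 15.1% were lower at an adjusted p below 0.05. These genes were chosen by correlation over the same arrays, group differences included, so their direction is not independent of Bt.20289.1.S1_at. Over the 19 arrays, the immune list mean had r = -0.47 with Bt.20289.1.S1_at and r = -0.57 with Bt.12927.2.S1_at, and 0.13 and -0.03 with the group means removed. For the same probe sets r was -0.53 and -0.28 with the endothelial, and -0.56 and -0.28 with the fibroblast list mean. It was -0.20 and 0.04 for smooth muscle and pericyte, -0.12 and 0.28 for granulosa, and -0.19 and 0.19 for steroidogenic theca genes. With the group means removed, the endothelial and fibroblast values were -0.13 and -0.16, and -0.30 and -0.31. Those of the other lists were then 0.49 and 0.35, -0.20 and 0.04, and -0.51 and -0.10 in the same order. The part of these cell types in the HAS2 values was not tested.

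The other synthases of hyaluronan, HAS1 and HAS3, were each represented by a brightest probe set that stayed below the threshold on all arrays, at no more than 2.4 for HAS1 and 2.3 for HAS3. CD44 and both tested probe sets annotated to HAS2 ran in opposite directions over the 19 arrays, with r = -0.62 for Bt.20289.1.S1_at and r = -0.55 for Bt.12927.2.S1_at. For Bt.12927.1.S1_at, below the threshold on all arrays, r was -0.39. With the group means removed, the correlation was -0.03 for Bt.20289.1.S1_at and -0.49 for Bt.12927.2.S1_at.

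**Figure D4:**
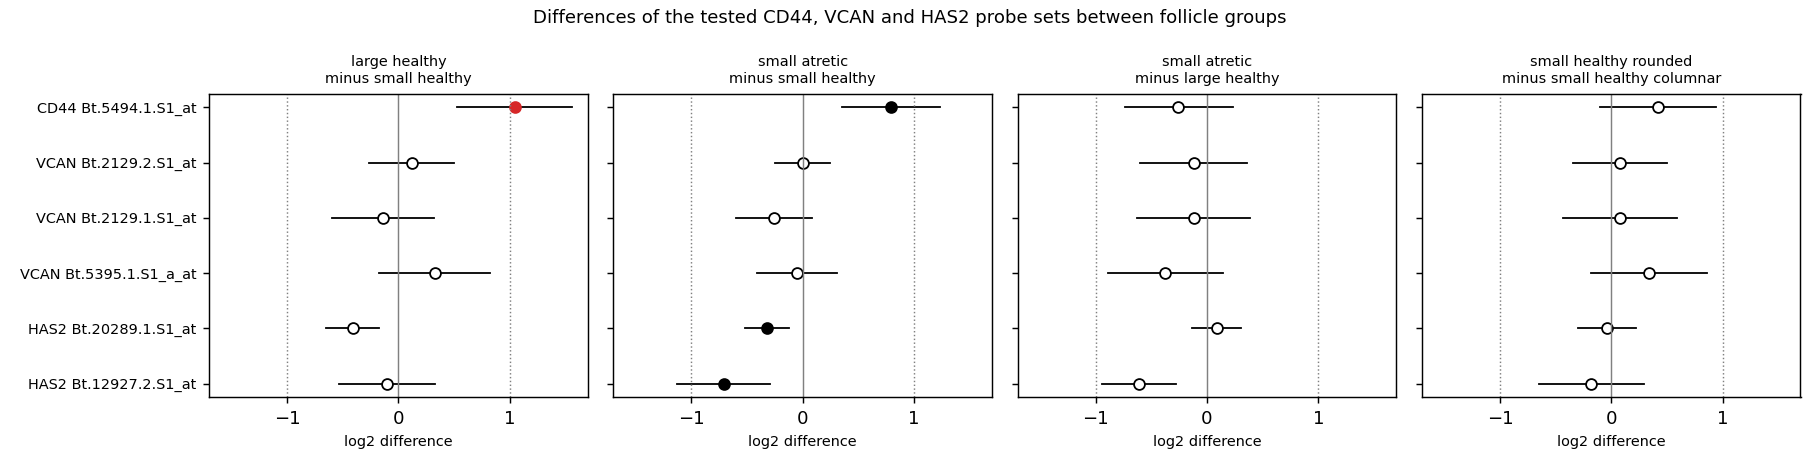
Log2 differences (horizontal axis) of the 6 tested member probe sets in the 4 comparisons, with 95% intervals from limma. Red points were called, black points had an adjusted p below 0.05 but less than a 2-fold change, open points neither, and the dotted lines mark a 2-fold change. CD44 is at 1.05 in large and 0.79 in atretic follicles relative to small healthy follicles, and the versican intervals all include 0.

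TNFAIP6 did not exceed the threshold in 18 of the 19 follicles. Bt.958.1.A1_at read 4.4, 1.7, 1.4, 1.2 and 1.3 in atretic follicles and 1.7, 1.7, 1.3 and 2.6 in large follicles, against 2.1, 1.3, 1.9, 1.5 and 1.6 in rounded and 1.5, 2.0, 1.3, 1.6 and 1.4 in columnar follicles. Bt.958.2.S1_at read 3.0, 1.9, 1.7, 1.7 and 1.9 in atretic follicles and 1.9, 1.9, 1.8 and 2.4 in large follicles, against values between 1.7 and 2.2 in small healthy follicles. Atretic follicle 1 was the highest of all 19 arrays on both, and large follicle 4 the second highest. The exact permutation p of the atretic and small healthy follicles was 0.483 for Bt.958.1.A1_at and 0.857 for Bt.958.2.S1_at, and that of the large and small healthy follicles was 0.408 and 0.877 for the same probe sets.

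The TNFAIP6 probe sets followed each other (r = 0.90), and atretic follicle 1 weighed heavily on the genes closest to Bt.958.2.S1_at. These were NUDT4 (r = 0.77), ADAMTS4 (r = 0.70), PNMT (r = 0.69), AMIGO2 (r = 0.64) and ZNF622 (r = 0.63), and without that follicle the values were 0.42, 0.25, 0.01, 0.18 and 0.30 in that order. The same follicle was also the highest atretic follicle for 3 other hyaluronan-related genes, which were chosen after their values were seen. How many of the other listed genes peaked there was not counted, and ADAMTS4 was already among the nearest genes. PTX3, a pentraxin that binds TSG-6 and stabilises the hyaluronan matrix of the cumulus, read 7.3 there and between 3.5 and 5.1 in the other atretic follicles. It also reached 6.5 in rounded follicle 5 and 6.2 in large follicle 1. ADAMTS4, a protease that cuts versican, read 7.7 there and between 5.5 and 6.0 in the others. SPP1, which encodes osteopontin, a ligand of CD44, read 4.0 there and between 1.3 and 2.1 in the others.

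Of 85 further genes listed for the synthesis, binding and breakdown of hyaluronan, for versican and for the ligands and partners of CD44, 59 were on the array with a probe set of their own, and the brightest of each was used. In large against small healthy follicles 42 were tested. Of these, 2 were called higher and 0 lower, and at an adjusted p below 0.05 there were 2 higher and 1 lower. The median difference of the list was 0.04, against -0.01 over all probe sets tested. Over all probe sets, 0.629% were called higher and 0.0771% lower, and 2.59% were higher and 0.983% lower at an adjusted p below 0.05. The list was chosen with earlier results of these data known, so its counts are a description and no test of enrichment.

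The called genes were TNC and TNXB, which encode tenascins, matrix glycoproteins of a family with members that bind versican. Both are in the study's own list of genes higher in large follicles. TNC read 5.6, 4.8, 4.7 and 5.1 in large follicles, against 3.8, 3.6, 4.9, 3.8 and 4.7 in rounded and 3.0, 3.5, 3.3, 3.5 and 4.2 in columnar follicles. The rounded follicles at 4.9 and 4.7 reached the range of the large follicles. The difference was 1.22 (SE 0.30, 95% interval 0.58 to 1.86, adjusted p = 0.0392 in limma). A second, dimmer TNC probe set differed by -0.25 (adjusted p = 0.105), so the 2 probe sets of the gene disagree. TNXB read 6.0, 4.1, 4.6 and 5.3 in large follicles, and between 3.3 and 4.4 in small healthy follicles. Large follicle 2 lay inside that range, and the difference was 1.09 (SE 0.27, adjusted p = 0.0396 in limma).

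Each of these 2 calls was kept in 13 of 26 alternatives. For TNC the adjusted p rose above 0.05 without any 1 of the 4 large follicles, of rounded follicles 2 and 4, or of columnar follicles 1, 2, 3 and 4, to between 0.0561 (without columnar follicle 4) and 0.120 (without large follicle 4). For TNXB it did so without large follicle 1, 3 or 4, rounded follicle 2, 4 or 5, or columnar follicle 1, 2, 3 or 5, to between 0.0532 (without columnar follicle 3) and 0.151 (without large follicle 4), and the difference was 0.76 without large follicle 1. Against the rounded follicles alone the adjusted p was 0.323 for TNC and 0.304 for TNXB. The gene that was lower in large follicles, HAPLN3, encodes a link protein that joins hyaluronan to proteoglycans. It read 5.2, 5.0, 5.0 and 5.1 in large follicles and between 5.1 and 5.9 in small healthy follicles, a difference of -0.49 (adjusted p = 0.0454 in limma), which was kept below 0.05 in 10 of 26 alternatives. ITIH3, an inter-alpha-trypsin inhibitor heavy chain, lay near the threshold of 3, with a difference of -0.34 (adjusted p = 0.0543).

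In atretic against small healthy follicles 41 of the listed genes were tested, of which 0 were called higher and 1 lower, at a median difference of -0.01 against 0.01 over all probe sets. An adjusted p below 0.05 was reached by 7 higher and 8 lower genes. Over all probe sets tested, 16.9% were higher and 15.1% lower by that measure, and 2.08% were called higher and 1.60% lower. The gene called lower was HMMR, a hyaluronan-binding protein that is also a component of the mitotic spindle. HMMR read 4.6, 4.4, 4.8, 4.9 and 4.3 in atretic follicles, against 5.7, 7.0, 5.7, 5.9 and 7.0 in rounded and 6.9, 7.0, 6.9, 5.1 and 7.2 in columnar follicles. Every atretic follicle lay below every small healthy follicle, as did 1.67% of all probe sets tested. The difference was -1.84 (SE 0.32, 95% interval -2.52 to -1.16, 0.279-fold, adjusted p = 0.00192 in limma), and a second HMMR probe set, Bt.27997.1.S1_at, gave -1.04 (adjusted p = 0.00707). The remaining 3 HMMR probe sets were below the filter. The call was kept in all 26 alternatives.

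Among genes of hyaluronan synthesis, UGDH, which makes the UDP-glucuronic acid that hyaluronan and chondroitin sulfate are built from, was lower in atretic follicles, with a difference of -0.65 (SE 0.13, adjusted p = 0.00376 in limma). It read 6.8, 7.1, 7.0, 7.3 and 6.9 in atretic follicles, and between 7.3 and 8.1 in small healthy follicles. GNPNAT1, an enzyme of the route to UDP-N-acetylglucosamine, differed by -0.44 (adjusted p = 0.0344). The other 3 synthesis genes tested did not pass the threshold.

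CHSY1, which extends the chondroitin sulfate chains of proteoglycans such as versican, read 6.6, 6.2, 6.7, 6.6 and 6.2 in atretic follicles, and between 6.9 and 7.8 in small healthy follicles. These ranges did not overlap, as in the same direction for 1.67% of all probe sets tested, and the difference was -0.85 (SE 0.15, adjusted p = 0.00225 in limma). It was the only one of the 7 chondroitin sulfate genes tested to pass the threshold.

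The genes higher in atretic follicles at an adjusted p below 0.05 were spread over several roles. ADAMTS1, a protease that cuts versican, read 9.2, 9.0, 8.3, 8.7 and 9.7 in atretic follicles, and between 7.7 and 8.5 in small healthy follicles, a difference of 0.88 (SE 0.17, adjusted p = 0.00335 in limma). Its second probe set gave 0.92 (adjusted p = 0.00453). TNXB differed by 0.83 (adjusted p = 0.00819) and FBLN1, a fibulin of the extracellular matrix, by 0.81 (adjusted p = 0.00875). Without atretic follicle 3, ADAMTS1 at 1.05 and FBLN1 at 1.02 were past the 2-fold limit. The hyaluronidase HYAL1 differed by 0.61 and the lysosomal enzyme HEXA by 0.32, whereas the hyaluronidases HYAL2 and HYAL3 differed by -0.36 and -0.23, of which HYAL3 read between 2.7 and 3.2 in both groups, around the detection threshold. TLR2 and TLR4, receptors of innate immunity that respond to fragments of hyaluronan, differed by 0.62 (adjusted p = 0.0245) and 0.59 (adjusted p = 0.0104), beside the higher immune markers given above. The inter-alpha-trypsin inhibitor heavy chains ITIH1 and ITIH3, at -0.26 and -0.27, lay near the detection threshold. Of the 15 genes past 0.05, only HMMR stayed below it when the rounded follicles alone were the comparison, apart from HYAL3, which was not tested there.

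**Figure D5:**
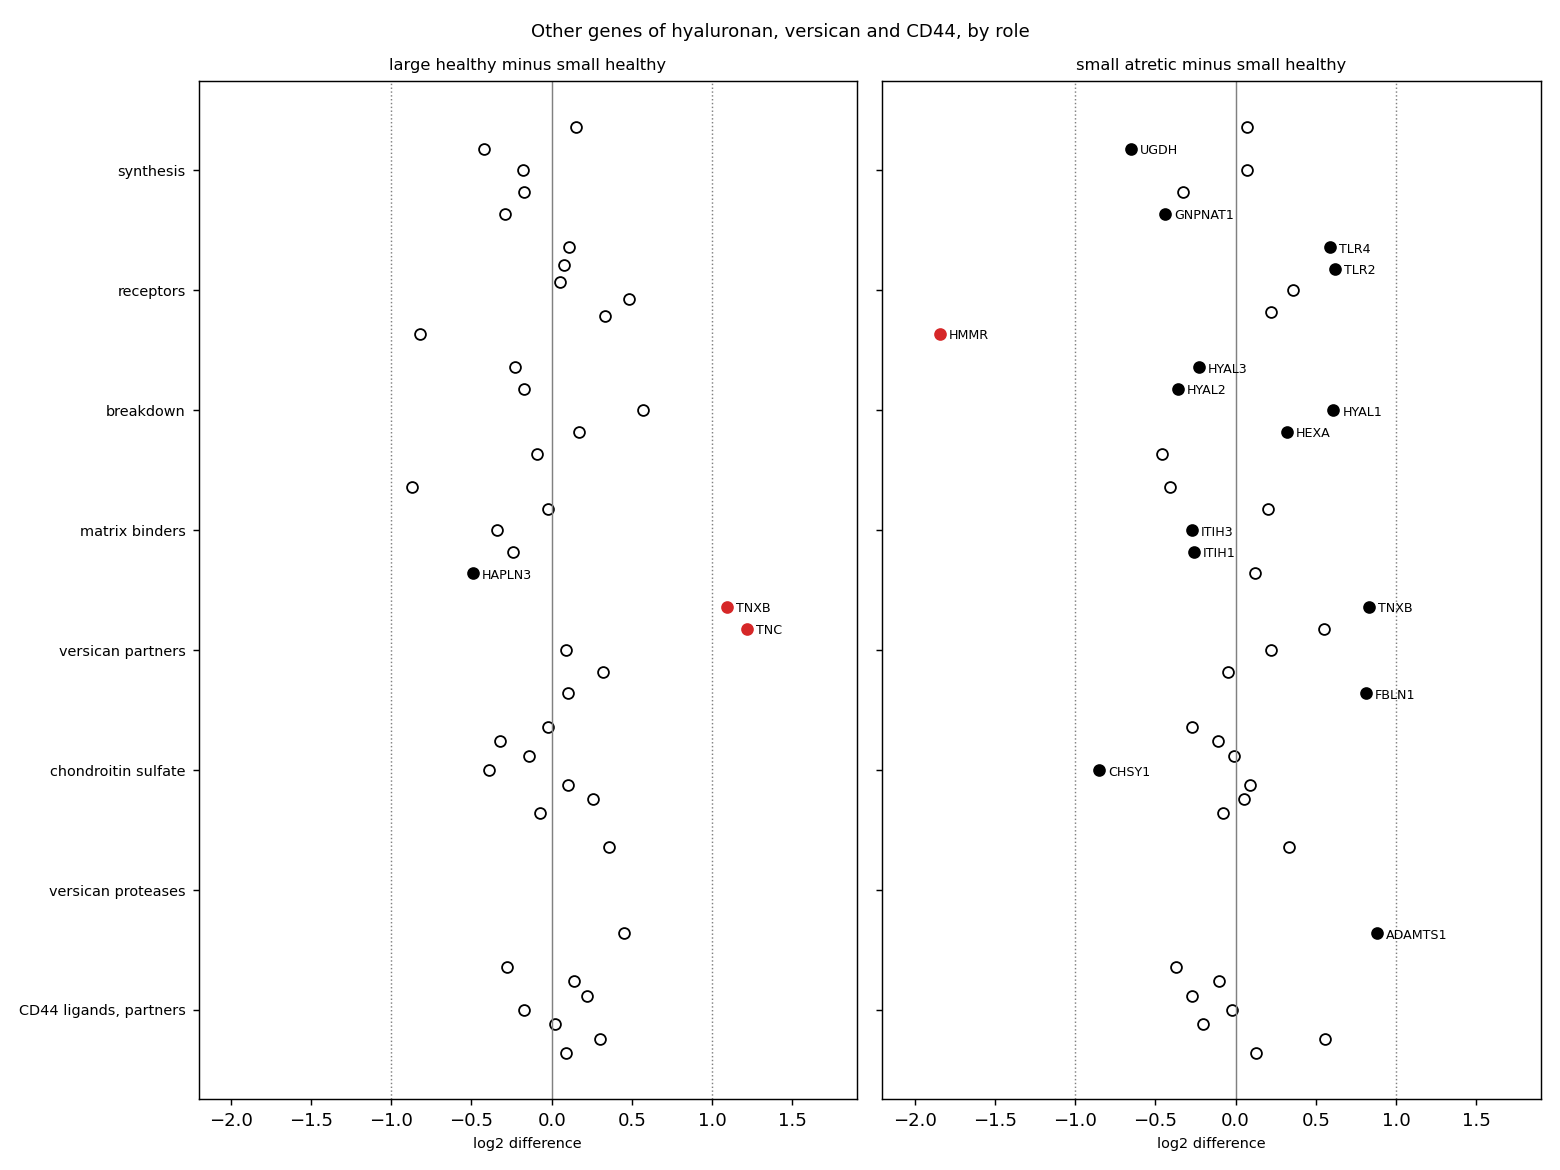
Log2 differences (horizontal axis) of the listed genes tested, grouped by role (vertical axis), in large minus small healthy follicles and in small atretic minus small healthy follicles. Each point is the brightest probe set of a gene. Red points were called, black points had an adjusted p below 0.05 but less than a 2-fold change, open points neither, and the dotted lines mark a 2-fold change. TNC and TNXB lie at 1.22 and 1.09 in large follicles, and HMMR lies at -1.84 in atretic follicles.

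Between atretic and large follicles 39 of the listed genes were tested, and 0 passed an adjusted p of 0.05 in limma, as for all 15326 probe sets tested. The 4 with the smallest p were HMMR (-1.03, adjusted p = 0.149), FBN1, which encodes a fibrillin of the microfibrils (-0.37, adjusted p = 0.192), CHSY1 (-0.47, adjusted p = 0.203) and TNC (-0.67, adjusted p = 0.216). Without large follicle 4, HMMR differed by -1.33 with an adjusted p of 0.0439 (limma). In that setting 125 of all 15207 probe sets tested had an adjusted p below 0.05 and 92 were called.

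Between rounded and columnar follicles 42 of the listed genes were tested, and 0 passed. The 4 with the smallest p were SRGN, which encodes serglycin, a proteoglycan of secretory granules that can bind CD44, TNC, UAP1 and HAPLN3, all with an adjusted p of 0.996. SRGN read 9.7, 10, 9.6, 9.9 and 8.7 in rounded follicles, and 9.7, 9.1, 7.8, 8.0 and 7.8 in columnar follicles. The difference of 1.10 (SE 0.36, 95% interval 0.33 to 1.87) had an unadjusted p of 0.00840 in limma.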

How the data were processed

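The authors summarised the 19 arrays by RMA with quantile normalization in Partek (version 6.5 per the labels) and deposited 1 log2 signal for each probe set and array, given to 1 decimal and with no read depth, so that the number of arrays limits the precision. All 19 columns were used, with groups and replicate numbers from the sample titles. Of the 24127 probe sets, 13317 have 1 gene symbol, 86 several and 10724 none, and of the symbols looked up in a newer gene table (13282 probe sets) 0 had changed. The 111 control probe sets were left out of the tests.

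Groups were compared in limma 3.58.1 under R 4.3.3 on the deposited log2 values, with Benjamini-Hochberg adjustment over 15570 probe sets (large against small healthy), 15470 (atretic against small healthy), 15326 (atretic against large) and 15570 (rounded against columnar, in a fit of the 3 healthy groups). Probe sets entered a fit when the log2 signal exceeded 3 on 50% or more of the arrays of any 1 of its follicle types. The median half-width of the 95% interval was 0.27, 0.24, 0.30 and 0.29 in that order. Both comparisons with small healthy follicles use the same 10 arrays. The self-test on simulated data passed for the largest planted changes and for few false calls. It set no requirement on changes near the 2-fold limit.

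The genes named are all member probe sets, the listed genes called in a comparison (if these were fewer than 4, the 4 of lowest p), the listed genes past an adjusted p of 0.05, and the 5 genes nearest to the brightest probe set of each member by Pearson correlation. HAS1, HAS3 and the 3 genes named for atretic follicle 1 were added after their values were seen. The members and lists were chosen with earlier results of these data known. Coordinates and sequences were not used here, since no genome build is given in the sources used here.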

Additional observations from a re-analysis of the deposited data

Results flagged for a closer look

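Of 115 groups of 4 or 5 follicles examined for the members and the named listed genes, 11 held a follicle whose gap to its nearest neighbour was a larger share of the range of the group than Dixon's critical value, and chance alone gives about 1 in 20. With signals rounded to 1 decimal, a narrow group can meet the criterion through a single step of rounding.

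Atretic follicle 1 stood apart for TNFAIP6, at 4.4 on Bt.958.1.A1_at (next 1.7) and 3.0 on Bt.958.2.S1_at (next 1.9), and for ADAMTS4, at 7.7 (next 6.0). Large follicle 4 stood apart on TNFAIP6 Bt.958.2.S1_at, at 2.4 (next 1.9), below the detection threshold. VCAN Bt.5395.1.S1_a_at was 6.2 in atretic follicle 4 (next 5.9). PTX3 was 6.2 in large follicle 1 (next 4.3). HMMR was 5.1 in columnar follicle 4 (next 6.9), and HAPLN3 was 4.7 in atretic follicle 2 (next 5.8). UAP1 was 6.7 in large follicle 3 (next 6.8) and 6.7 in columnar follicle 3 (next 6.9). ITIH3 was 3.0 in atretic follicle 3 (next 2.9).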

How the results depend on the processing

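Between large and small healthy follicles, the 110 probe sets called overall became 71 with a detection threshold of 5, 54 with an unmoderated test, 59 without both arrays of highest CYP19A1 (large 2 and columnar 1), 12 against rounded follicles alone, and 54 to 162 with 1 follicle left out. The single member call, CD44, became 0 with the unmoderated test (adjusted p = 0.0580), with the replicate number as a block (0.96, adjusted p = 0.0782) and against rounded follicles alone, and 0 to 1 with 1 follicle left out. Between atretic and small healthy follicles, the 569 called became 151 against rounded follicles alone and 726 against columnar follicles alone. In the latter setting 15403 probe sets were tested and 4933 had an adjusted p below 0.05. There 1 member was called (CD44, 1.0, adjusted p = 0.00708). Between atretic and large follicles, the 0 called became 43 with all 19 arrays in 1 fit and 0 to 92 with 1 follicle left out.

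Some differences near 0 changed sign. VCAN Bt.2129.2.S1_at in large against small healthy follicles was -0.04 without both arrays of highest CYP19A1, and VCAN Bt.5395.1.S1_a_at in atretic against small healthy follicles was 0.12 against columnar follicles alone. With 1 follicle left out, Bt.2129.2.S1_at ranged from -0.05 to 0.32 and Bt.2129.1.S1_at from -0.34 to 0.06 in large against small healthy follicles, Bt.5395.1.S1_a_at from -0.13 to 0.01 in atretic against small healthy follicles, Bt.2129.2.S1_at from -0.32 to 0.05 and Bt.2129.1.S1_at from -0.32 to 0.08 in atretic against large follicles, and Bt.2129.2.S1_at from -0.01 to 0.20, Bt.2129.1.S1_at from -0.10 to 0.23 and HAS2 Bt.20289.1.S1_at from -0.11 to 0.02 in rounded against columnar follicles. The cause was not tested.

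The labels do not say whether replicate numbers pair the follicles. Deviations of same-numbered arrays correlated between -0.34 and 0.57, a range that alone cannot settle this. Between atretic and columnar follicles the best match had the same number in 3 of 5 pairs, and between large and rounded follicles in 0 of 4. With the replicate block 77 probe sets were called in large against small healthy follicles, of which 68 were among the 110, and 564, 0 and 0 in the other comparisons. The deposited signals hold no background measure of each array, which limits what can be said of the probe sets below the threshold of 3.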
